A study of Mus musculus with 6 samples.

Results

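The cultures described here were the 3 controls of the study, kept for 24 h without valproic acid, and they make up 3 of its 6 arrays. Each began with freshly isolated C57Bl/6 bone marrow cells of the L-S+K+ phenotype, a sorted fraction called LSK that holds hematopoietic stem cells and multipotent progenitors. The medium held fetal calf serum and 2 murine growth factors, stem cell factor (SCF) and the granulocyte/macrophage colony stimulating factor GM-CSF. Serum and both factors are therefore shared by every value given here, whether each culture came from 1 animal or from a pool is not given in the sources used here, and uncultured LSK cells were not analysed here. The series design calls the cultures independent biological replicates.

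SCF binds the receptor tyrosine kinase KIT and sustains stem cells and early progenitors. GM-CSF binds a receptor made of a specific alpha chain and a beta chain shared with the IL-3 and IL-5 receptors, signals through JAK2 and STAT5, and drives granulocyte and macrophage progenitors to divide and mature. Stem and progenitor cells are also known for lineage priming, in which genes of several blood lineages are transcribed at low level before a cell commits to one of them.

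A gene was counted as detected when the detection p-value of a probe, which sets its signal against that of the array's negative control beads, was under 0.05 on all 3 arrays. By that rule 7319 of 16593 named genes, or 44.1%, were detected, 1050 passed on 1 or 2 arrays with their best probe, and 8224 passed on none. Per array, 10861 to 11097 probes passed, and the median raw signal of detected probes was 4.64 to 4.84 times that of the others. Signals are given as normalized log2 intensities of the brightest detected probe, as mean ± SD over n = 3 cultures or as 3 values in the order of cultures 1, 2 and 3, which have no order among themselves. The rank of a gene is the percentage of detected genes with a lower mean. Ranks order probe signals, which also depend on the probe's sequence, and are not amounts of transcript. Median ranks of gene lists are taken over their detected members. The detected genes had a median level of 9.37, quartiles of 7.68 and 10.89, and a median SD of 0.13. In bulk RNA, fewer cells of a type and less RNA per cell cannot be told apart. All values are descriptions of 1 group, so no test is given, and the number of arrays limits the precision.

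The 5 marker genes of stem and progenitor cells named for these cultures were all detected on every array. They were chosen with earlier results of these data known, so their detection is not a check of the label. Other stem cell genes, given below, were detected on no array. Gata2, a zinc finger transcription factor needed for stem cell maintenance, read 12.68, 12.63 and 12.35 and ranked at 93.2. Meis1, a homeodomain partner of HOX proteins, read 12.11, 12.10 and 11.83, at a rank of 88.6. For both genes culture 3 was the lowest and cultures 1 and 2 lay close together. Tal1, the basic helix-loop-helix factor that specifies blood, read 10.60, 10.66 and 10.75 and ranked at 72.0. Esam, an adhesion molecule found on stem cells and endothelium, read 10.21, 10.46 and 10.15, at a rank of 65.4. Robo4, a ROBO family receptor known on stem cells and vessels, read 8.26, 8.36 and 8.33, ranked at 33.4 and rested on 1 detected probe of 3. These signals were above background in each culture, and the ranks ran through the upper and the lower parts of the detected range. The genes of the sort markers, Kit and Ly6a, were not analysed here.

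Of the stem and progenitor transcription factors, 28 of 36 analysed were detected, beside 44.1% of all genes, with a median rank of 65.1 beside 50 by construction over all detected genes. With the 8 others set to a rank of 0, the median was 43.0. Lmo2, the bridging protein that joins TAL1 to its partners, gave the brightest signal of the list at 13.78, 13.83 and 13.74. Ldb1, the dimerizing member of the same complex, read 12.99, 13.10 and 12.98, and Lyl1, a close relative of Tal1, ranked at 84.8. Tal1, Lmo2, Ldb1 and Gata2 were thus each detected at a rank of 72.0 or above, while the complex of their proteins was not measured. Cbfb, the non-DNA-binding partner of RUNX proteins, averaged 12.86 ± 0.07 (SD, n = 3), while Runx1 itself ranked at 24.4. Nfe2, a factor of platelet and red cell genes, averaged 12.84 ± 0.04 (SD, n = 3). Zfpm1, which encodes the GATA cofactor FOG1, read 12.59, 12.56 and 12.44, and Hhex, a homeobox factor of early blood and B cell progenitors, read 12.33, 12.27 and 12.28. These 4 genes varied little, with SDs of 0.03 to 0.08, below the median SD of detected genes.

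Other factors of the list ranked lower or were not detected. Spi1, which encodes the myeloid and lymphoid master regulator PU.1, ranked at 41.4, Gfi1, a repressor that sustains stem cells and granulocyte formation, at 38.0, and Myb, a factor of progenitor division, at 35.6. Hox genes, which give progenitors their capacity to self-renew, lay at ranks of 65.0 for Hoxa7, 44.6 for Hoxa5 and 9.78 for Hoxb4. Hoxb5, a gene known to mark long-term stem cells in mice, read 6.25, 6.47 and 6.27. Hoxa9, a partner of Meis1 in progenitors and in leukemia, read 5.77, 6.17 and 5.95, and its highest detection p of 0.0439 left it just inside the limit. Mecom was detected on 1 array. Erg, Mycn, Prdm16, Hlf, Hoxa10, Ikzf2 and Klf2 were detected on none.

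A gene without detection was not thereby shown to be silent. Genes that dividing or respiring cells use were among the undetected, such as Mcm7, a subunit of the replicative helicase, Pgk1, an enzyme of glycolysis, Ftl1, the ferritin light chain, and Sucla2 of the citric acid cycle. Of all detected genes, 1663 also had an undetected probe, and of 1746 genes with several detected probes 623, or 35.7%, had a gap of at least 2 log2 units between the brightest and the dimmest. Around the limit itself lay Klf4 with a highest detection p of 0.0351, Procr at 0.0439 and Nqo1 at 0.0476 on the inside. On the outside, Il6 had 0.0539, Klrb1c 0.0551, and Fech and Fgd5 0.0564 each.

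Surface genes of stem cells and progenitors were detected for 22 of 27 analysed, beside 44.1% of all genes. Their median rank was 40.0, or 32.6 with undetected members at 0. Cd63, a tetraspanin of lysosomes and secretory granules, read 13.36, 13.49 and 13.32. Cd27, a TNF receptor family member carried by progenitors and lymphocytes, read 13.02, 13.13 and 13.04. Their ranks were 97.0 and 95.8. Cd34, the sialomucin that marks progenitors, averaged 10.98 ± 0.12 (SD, n = 3), at a rank of 76.4. Cd93, the receptor recognized by the AA4.1 antibody, read 11.54, 11.26 and 11.10, so that its 3 cultures spread more than those of Cd44, the hyaluronan receptor, at 11.30, 11.32 and 11.19. Cd9, a tetraspanin of megakaryocytes and stem cells, averaged 11.53 ± 0.15 (SD, n = 3). Eng, a co-receptor for TGF-beta, averaged 10.92 ± 0.17 (SD, n = 3), and Cxcr4, the receptor that holds stem cells in the marrow niche, averaged 10.82 ± 0.13 (SD, n = 3).

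Genes whose products are used to divide the LSK fraction gave mixed readings. Cd48, a SLAM family member of committed progenitors, ranked at 36.2 and Cd244, its binding partner, at 17.0, whereas Slamf1, which encodes the stem cell marker CD150, was detected on no array. Thy1 ranked at 32.6, Itga2b, the megakaryocyte integrin CD41, at 59.8, and Tek, the angiopoietin receptor of quiescent stem cells, at 23.8. Flt3, the receptor that marks lymphoid-primed multipotent progenitors, read 6.15, 6.48 and 6.44, at a rank of 6.65. Procr, which encodes the stem cell marker EPCR, read 5.98, 5.84 and 6.38. Both genes sat at the dim end of what could be called detected. Prom1, Jam3 and Itga4 were detected on no array, and Fgd5, known from reporter mice as a stem cell gene, on 2.

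**Figure D1:**
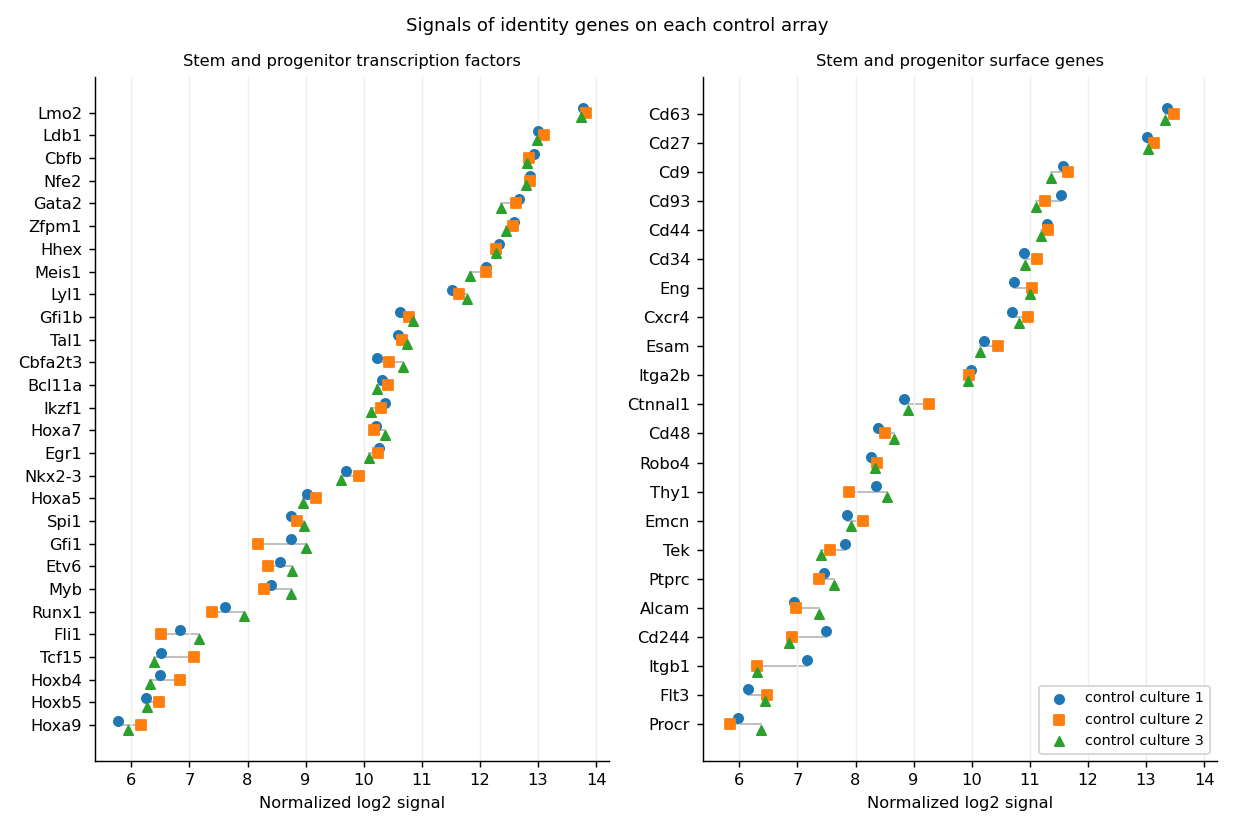
Normalized log2 signal of each detected stem and progenitor transcription factor (left) and surface gene (right) on the 3 control arrays, 1 symbol per culture, from the brightest at the top to the dimmest. The symbols of a gene lie close together, with median ranges of 0.24 and 0.30, while the genes spread from 13.78 for Lmo2 to 5.96 for Hoxa9.

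**Figure D2:**
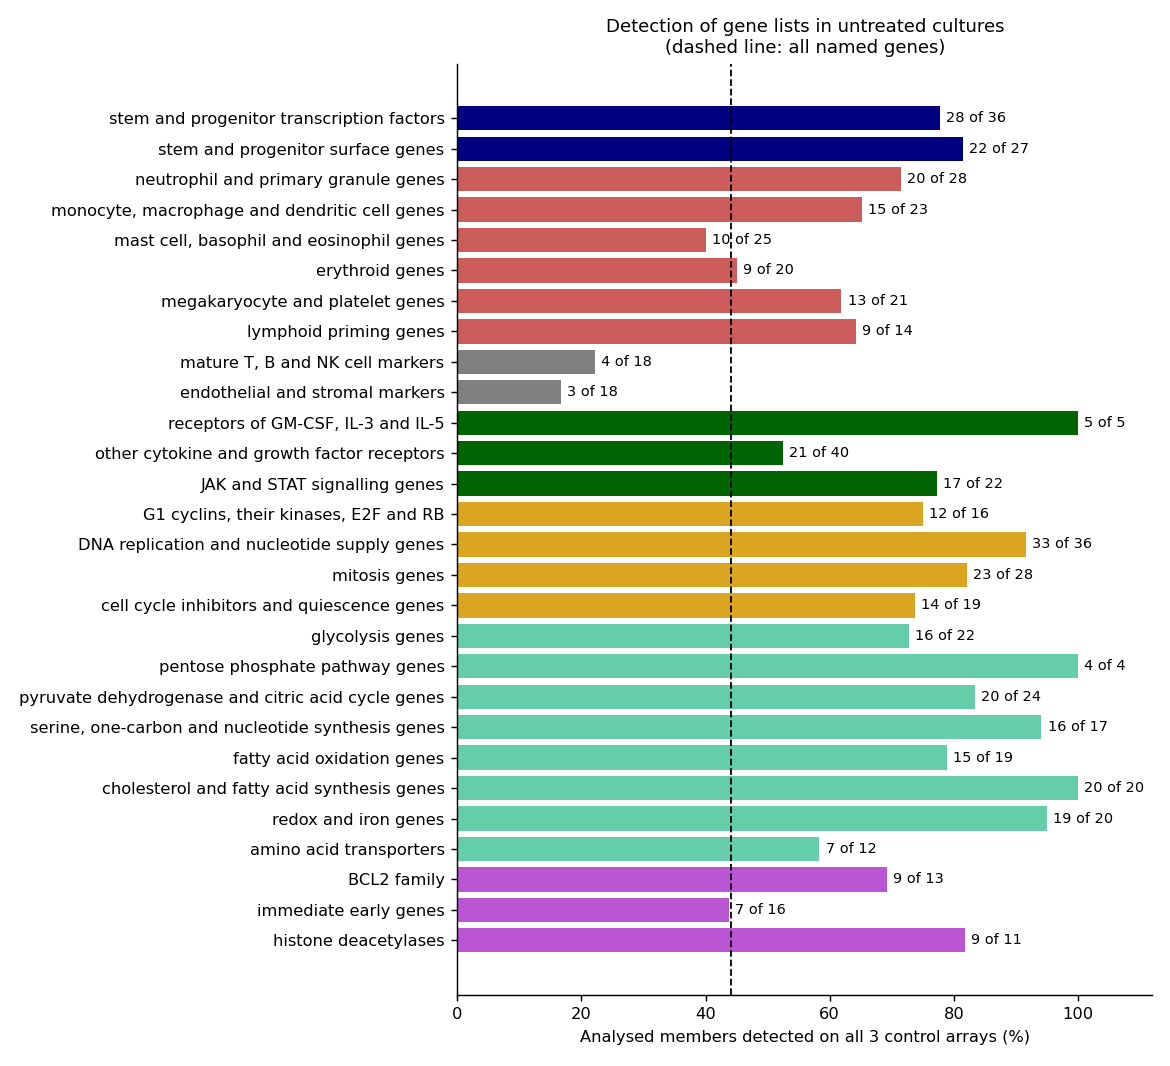
Share of the analysed members of 28 gene lists detected on all 3 control arrays (bars, percent, with counts), and the share over all named genes (dashed line, 44.1%). Stem cell, cell cycle and metabolic lists lie to the right of the line, from 58.3% upward. So do the neutrophil, monocyte, megakaryocyte, lymphoid priming, receptor, JAK and STAT, BCL2 and histone deacetylase lists. Mast cell, erythroid and immediate early genes lie near the line. The lymphocyte markers (4 of 18, Vpreb1 of B cell precursors among them) and the endothelial and stromal markers (3 of 18) lie to the left of it.

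Of the neutrophil and primary granule genes, 20 of 28 analysed were detected, beside 44.1% of all genes. Their median rank was 54.9, or 36.3 with undetected members at 0, and 7 of them ranked in the top 10% of detected genes. The primary granule proteins are made at the promyelocyte stage, and their genes are known targets of PU.1, MYB and C/EBP factors. The 250 bases upstream of the RefSeq start (GRCm38.p6) of the 4 primary granule genes with the brightest signals are shown here because their products define that stage. Capitals mark the letters GAGGAAGT, a PU.1-type motif, AACNG, a MYB-type motif, and ATTGC, a part of the C/EBP site, on either strand. The motifs were chosen with these results and sequences in view, and no marked motif overlaps another. Elane lies at chr10:79886062-79886311 on the plus strand, Prtn3 at chr10:79879417-79879666 on the plus strand, Mpo at chr11:87793534-87793783 on the plus strand and Ctsg at chr14:56102575-56102824 on the minus strand.
Elane: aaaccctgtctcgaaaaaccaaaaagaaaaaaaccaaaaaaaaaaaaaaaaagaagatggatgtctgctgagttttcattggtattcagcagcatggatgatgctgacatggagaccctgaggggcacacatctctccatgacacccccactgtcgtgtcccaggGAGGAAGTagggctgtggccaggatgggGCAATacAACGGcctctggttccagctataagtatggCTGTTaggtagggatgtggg
Prtn3: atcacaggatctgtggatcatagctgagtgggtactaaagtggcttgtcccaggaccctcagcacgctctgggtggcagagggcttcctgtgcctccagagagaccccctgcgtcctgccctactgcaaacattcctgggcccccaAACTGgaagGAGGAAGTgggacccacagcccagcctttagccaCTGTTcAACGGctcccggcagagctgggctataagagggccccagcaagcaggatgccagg
Mpo: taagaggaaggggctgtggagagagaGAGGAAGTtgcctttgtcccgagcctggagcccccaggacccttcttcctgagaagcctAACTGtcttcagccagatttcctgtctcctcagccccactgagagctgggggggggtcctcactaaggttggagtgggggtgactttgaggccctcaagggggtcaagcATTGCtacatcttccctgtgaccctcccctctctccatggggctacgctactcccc
Ctsg: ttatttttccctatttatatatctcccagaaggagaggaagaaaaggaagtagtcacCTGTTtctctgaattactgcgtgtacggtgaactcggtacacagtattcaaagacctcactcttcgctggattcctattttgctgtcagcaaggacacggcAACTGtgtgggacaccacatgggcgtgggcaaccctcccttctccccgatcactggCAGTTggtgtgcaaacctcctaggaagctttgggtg
The Elane and Mpo windows held all 3 motifs, the Prtn3 window the PU.1-type and the MYB-type motif, and the Ctsg window the MYB-type motif. In the Elane window the PU.1-type motif began 85 bases before the start, and in that of its chromosomal neighbour Prtn3 95 bases before it. Of all 32851 promoters of the same length in the table, 2.441% held the PU.1-type motif, 74.19% the MYB-type motif, 23.08% the C/EBP-type motif and 0.4475% all 3 together. Of the detected neutrophil genes, 17 had a promoter among these. In any of their promoters, 4 genes held the PU.1-type motif, 16 the MYB-type motif and 9 the C/EBP-type motif. These counts are per gene, while the shares above are per promoter. A match of letters is a description and not a binding site.

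Mpo, the myeloperoxidase of primary granules, read 14.49, 14.28 and 14.52 and ranked at 99.1. Its other detected probes read 11.77, 11.42 and 11.76, and 10.27, 9.12 and 9.58, both with culture 1 the highest. With the mean of its detected probes Mpo ranked at 90.1. Ctsg, the protease cathepsin G, read 13.81, 13.59 and 14.11. Prtn3, proteinase 3, read 13.11, 12.75 and 13.27, at a rank of 95.8. On the brightest probe of each of these 3 genes culture 3 was the highest and culture 2 the lowest. Elane, neutrophil elastase, showed the same order with wider gaps, at 12.38, 11.57 and 12.82, and its range of 1.26 became 0.44 without culture 2. Ms4a3, a tetraspan protein that marks granulocyte and monocyte progenitors, read 12.45, 11.79 and 12.62. Lyz2, the lysozyme of granulocytes and macrophages, read 10.44, 10.17 and 10.55.

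Genes of mature neutrophils and of later granules were also detected. S100a8, a subunit of calprotectin and one of the most abundant proteins of mature neutrophils, read 14.33, 13.80 and 14.59, and its partner S100a9 read 13.32, 12.73 and 13.51. Ltf, lactoferrin of secondary granules, ranked at 59.1, Lcn2, the iron-siderophore binding lipocalin, at 55.3, and Camp, the cathelicidin, at 51.9. Hp, haptoglobin, read 7.59, 6.66 and 8.43, and Mmp9, a gelatinase of tertiary granules, read 6.62, 6.64 and 7.26. Cebpe, the regulator of secondary granule genes, ranked at 33.2. Mmp8, Retnlg, Cxcr2, Padi4, Itgam and Cybb, which belong to later neutrophils or to phagocytes, were detected on no array. Cebpa, the factor that starts granulocyte formation, was detected on 1 array and Fcnb, a ficolin of neutrophil precursors, on 2.

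The cultures also differed from each other in the neutrophil genes. Of the 20 detected, 17 were highest in culture 3, against 37.2% of all detected genes, and 18 were lowest in culture 2, against 29.8%. A range of at least 1 log2 unit over the cultures was met by 9 of the 20, beside 0.874% of all detected genes (64 of 7319). The median difference of culture 3 minus culture 2 was 0.83 over the list and 0 over all detected genes. The summed linear signal of the analysed list members was 95140 in culture 1, 71927 in culture 2 and 110103 in culture 3. Csf3r, the G-CSF receptor, ran the other way at 9.66, 9.67 and 9.57, with gaps smaller than the median SD. Chil3 and Ngp were highest in culture 1, and Mmp9 was lowest in culture 1. What set the cultures apart was not tested.

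**Figure D3:**
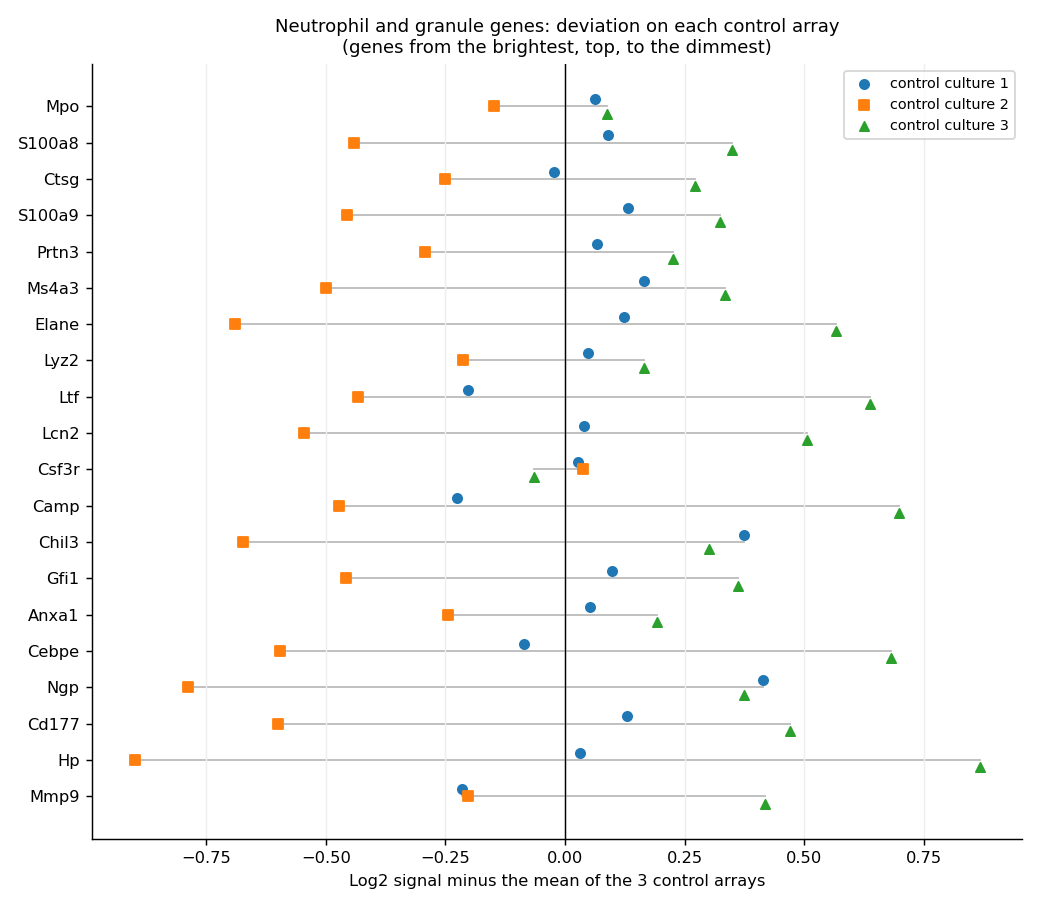
Deviation of each detected neutrophil gene from its own mean over the 3 control cultures (log2 units), by culture. The median deviation was 0.06 in culture 1, -0.46 in culture 2 and 0.36 in culture 3, and the points of cultures 2 and 3 lie on opposite sides of 0 for most genes.

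Monocyte, macrophage and dendritic cell genes followed, with 15 of 23 analysed detected, beside 44.1% of all genes. Their median rank was 24.7, or 16.6 with undetected members at 0. Cst3, cystatin C, a gene of dendritic cells that many tissues also use, read 13.35, 13.41 and 13.54. Irf8, the factor that steers progenitors to monocytes and dendritic cells, read 10.40, 10.27 and 10.63, at a rank of 68.4. Genes of antigen presentation were present as well, with H2-Ab1 at 10.59, 10.74 and 10.82 and Cd74, the invariant chain, at 10.36, 9.95 and 10.49. H2-Aa averaged 8.92 ± 0.22 and H2-Eb1 8.29 ± 0.30 (SD, n = 3). As in the neutrophil list, most of the genes, 13 of 15, were highest in culture 3, beside 37.2% of all detected genes. Ly86, a partner of the TLR family member RP105, read 7.93, 7.45 and 8.32, and Mrc1, the mannose receptor of macrophages, read 7.58, 7.39 and 8.02. Siglech of plasmacytoid dendritic cells ranked at 22.0, Adgre1, the macrophage antigen F4/80, at 16.6, and Cx3cr1 at 12.3. Klf4, a factor of monocyte formation, read 6.67, 5.89 and 6.73. Cd14, Ccr2, Fcgr1, Itgax, Cd209a, Batf3 and Irf4 were detected on no array.

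Mast cell, basophil and eosinophil genes were detected for 10 of 25 analysed, or near the 44.1% of all genes, at a median rank of 26.9. With undetected members at 0 the median was 0. Srgn, the proteoglycan core of granules in many blood cells, averaged 12.26 ± 0.12 (SD, n = 3), and Fcer1g, a signalling chain shared by several Fc receptors, averaged 11.73 ± 0.18 (SD, n = 3). Neither is restricted to these lineages. Prg2, major basic protein of eosinophils, read 8.56, 9.55 and 8.94, and Epx, eosinophil peroxidase, read 6.19, 6.79 and 6.39. For these 2 eosinophil granule genes culture 2 was the highest. Mcpt8, a basophil protease, read 8.96, 8.62 and 9.20, Cpa3, the mast cell carboxypeptidase, read 7.86, 7.47 and 7.86, and Hdc, the histamine synthesis enzyme, read 7.66, 7.32 and 8.22. Here culture 2 was the lowest each time. Fcer1a, the IgE receptor alpha chain, averaged 6.30 ± 0.08 (SD, n = 3). The mast cell proteases Mcpt1, Mcpt2, Mcpt4, Cma1, Tpsab1 and Tpsb2 were detected on no array.

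The erythroid list had 9 of 20 analysed genes detected, again near 44.1%. Zfpm1 and Tal1, which other lineages share, were given above. Urod, an enzyme of heme synthesis in every cell, averaged 12.49 ± 0.07 (SD, n = 3). Tfrc, the transferrin receptor of dividing and heme-making cells, read 12.25, 11.53 and 11.90. Car2, carbonic anhydrase, read 9.88, 9.18 and 8.87. Hba-a1, alpha globin, read 8.62, 6.60 and 10.77, a range of 4.18 log2 units and the widest of any detected gene, 18.1-fold between cultures 3 and 2. The range was 2.02 without culture 3 and 2.15 without culture 2. It was 3.17 without background correction and 2.78 in the deposited log2 values. The alpha globin genes are near-identical copies, so the signal may not belong to Hba-a1 alone. Aqp1, the water channel of red cells and vessels, read 7.71, 7.39 and 8.69, and Klf1, the erythroid transcription factor, read 6.24, 5.98 and 7.09, in the same order as Hba-a1. Gata1, Epor, Hbb-bh1, Alas2, Epb42 and Tspo2 were detected on no array. The summed linear signal of the list was 21172 in culture 1, 18777 in culture 2 and 20945 in culture 3. The part of red cell RNA in the differences between cultures was not tested.

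The 250 bases upstream of Hba-a1 are shown because its signal differed most between the cultures. They lie at chr11:32283422-32283671 on the plus strand (RefSeq, GRCm38.p6), and capitals mark a motif of GATA factors, TGATAA, searched on both strands and held by 7.942% of the promoters of that length.
Hba-a1: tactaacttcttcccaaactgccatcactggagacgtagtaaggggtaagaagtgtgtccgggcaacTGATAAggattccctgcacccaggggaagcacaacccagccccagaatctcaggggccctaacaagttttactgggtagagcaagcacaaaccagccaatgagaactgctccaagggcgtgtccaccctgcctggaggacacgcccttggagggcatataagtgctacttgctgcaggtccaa
Its GATA-type motif began 183 bases before the start. The match is a description of letters only.

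Megakaryocyte and platelet genes were detected for 13 of 21 analysed, beside 44.1% of all genes. The median rank was 52.7, or 17.2 with undetected members at 0. F2r, the thrombin receptor PAR1, read 13.47, 13.48 and 13.20, at a rank of 97.0. Rap1b, a small GTPase of platelet integrin activation that many cells share, averaged 12.94 ± 0.02 (SD, n = 3). Plek, pleckstrin of platelets and leukocytes, read 10.82, 10.87 and 10.87. The lineage-restricted genes ranked lower. Itga2b averaged 9.96 ± 0.03, Gp5 9.53 ± 0.05 and Pf4, platelet factor 4, 9.44 ± 0.18 (SD, n = 3), whereas Vwf, which marks platelet-biased stem cells as well as platelets, ranked at 23.3. The median range of the list over the cultures was 0.10. Wider gaps were seen for the dim genes Treml1, a platelet granule receptor, at 6.63, 6.15 and 7.05, and Fli1, a megakaryocyte and stem cell factor, at 6.85, 6.52 and 7.16. Ppbp, Gp1bb, Selp, Alox12 and Tubb1 of mature megakaryocytes and platelets were detected on no array.

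Lymphoid priming genes were detected for 9 of 14 analysed, beside 44.1% of all genes. The median rank was 20.5, or 11.0 with undetected members at 0. Satb1, a chromatin organizer that primes lymphoid fate, read 11.39, 11.23 and 11.45, at a rank of 81.5. Il12a, a subunit of the cytokine IL-12, averaged 10.36 ± 0.06 (SD, n = 3), and Notch1, the receptor of T cell commitment, averaged 9.56 ± 0.02 (SD, n = 3). Dntt, terminal transferase, read 8.42, 7.60 and 7.98, and Il7r, the IL-7 receptor chain, read 7.43, 7.38 and 7.32. The recombinase gene Rag1 was detected on some arrays and Rag2 on none. Gata3, a factor of T cells that stem cells also use, read 6.92, 7.24 and 6.71.

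Markers of other cells were also examined. Their lists were chosen with earlier results known, and undetected genes are not shown to be silent, so purity was not tested. Esam and Robo4, which vessels also carry, were counted with the stem cell genes. Of the listed T, B and NK cell markers, most of them of mature cells, 4 of 18 were detected, beside 44.1% of all genes. Besides these, 3 more, Klrb1c among them, passed on 1 or 2 arrays. Cd3e, Cd3d, Cd3g, Cd4, Cd8a, Cd8b1, Cd5, Ms4a1, Pax5, Ncr1 and Gzmb were detected on no array. The detected ones were Nkg7, a granule membrane protein, at 11.38, 11.13 and 11.41, and Cd79b at 9.79, 9.61 and 9.81. Further, Vpreb1, a gene of B cell precursors and not of mature B cells, read 6.59, 6.24 and 7.35, and Klrd1 read 6.63, 6.22 and 6.77. All 4 were highest in culture 3, beside 37.2% of all detected genes, and lowest in culture 2, beside 29.8%. The summed linear signal of the list was 3986, 3449 and 4173. Their part in the differences between cultures was not tested. Of endothelial and stromal markers 3 of 18 were detected, and 3 more passed on 1 or 2 arrays. Pecam1, which blood cells carry too, read 9.42, 9.57 and 9.41, Tie1 read 7.86, 7.56 and 7.01, and Pdgfrb read 7.12, 7.21 and 7.39. Cdh5, Kdr, Flt4, the collagens Col1a1, Col1a2 and Col3a1, Lepr, Sparc, Vcam1, Pdgfra, Dcn and Lum were detected on no array, and the summed signal of the list lay between 1242 and 1331.

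The receptor chains of GM-CSF, IL-3 and IL-5, of which GM-CSF was in the medium, were all 5 detected, beside 44.1% of all genes. They had ranks of 5.34 to 41.7 and a median rank of 18.0. Csf2ra, the GM-CSF-specific alpha chain, read 8.71, 8.90 and 9.05, at a rank of 41.7. Csf2rb, the shared beta chain, read 6.23, 6.66 and 6.85, and Csf2rb2, the closely related mouse beta chain of the IL-3 receptor, read 6.78, 7.34 and 7.40. In these 3 genes culture 1 was the lowest and culture 3 the highest. The 2 beta chain genes are similar in sequence, and their probes may share signal. Il3ra read 7.70, 7.70 and 7.55, and Il5ra, the IL-5 alpha chain of eosinophil progenitors, read 6.10, 6.46 and 6.27.

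Among other cytokine and growth factor receptors 21 of 40 analysed, or 52.5%, were detected, beside 44.1% of all genes. Their median rank was 23.8, or 7.45 with undetected members at 0. The brightest were the TGF-beta receptors, which transmit a quiescence signal in stem cells. Tgfbr2 read 11.50, 11.16 and 11.11, and Tgfbr1 read 11.13, 11.05 and 10.54. Interferon receptor genes lay near the middle of the detected range, with Ifngr1 at 9.42 ± 0.14 and Ifnar2 at 9.18 ± 0.09 (SD, n = 3). Il27ra, the IL-27 receptor chain, averaged 9.19 ± 0.03 (SD, n = 3). Il6st, the gp130 chain shared by IL-6 family receptors, ranked at 21.6, and Igf1r at 19.0. Il18r1, the IL-18 receptor chain, averaged 6.45 ± 0.11 (SD, n = 3). The receptors Epor, Il1r1, Il1rap, Lifr, Osmr, Ifnar1, Bmpr1a, Insr and Fgfr1 were detected on no array.

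Downstream of these receptors, 17 of 22 JAK and STAT signalling genes were detected, beside 44.1% of all genes. Their median rank was 54.6, or 43.3 with undetected members at 0. Ptpn11, the phosphatase SHP2 that links cytokine receptors to RAS, read 12.49, 12.38 and 12.25. Shc1, an adaptor of the same route, averaged 12.33 ± 0.02 (SD, n = 3), and Ptpn6, the inhibitory phosphatase SHP1, averaged 11.98 ± 0.07 (SD, n = 3). Cish, a STAT5 target that limits cytokine signals, averaged 11.11 ± 0.08 (SD, n = 3), at a rank of 78.4, while Socs2, a further STAT5 target, ranked at 50.7, Pim1 at 19.4 and Socs3 at 13.3. Stat3 read 10.67, 10.67 and 10.95, and Stat5a read 10.76, 10.63 and 10.43. Culture 3 was thus the highest for Stat3 and the lowest for Stat5a. Jak2, the kinase bound to the GM-CSF receptor, ranked at 40.4, Tyk2 averaged 9.97 ± 0.07 (SD, n = 3), and Stat2 averaged 6.30 ± 0.14 (SD, n = 3). Stat5b, Socs1, Sh2b3 and Gab2 were detected on no array.

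Among genes of cell division, DNA replication and nucleotide supply genes were detected for 33 of 36 analysed, beside 44.1% of all genes. Their median rank was 87.0, or 84.3 with undetected members at 0, and 13 ranked in the top 10%. The helicase subunits Mcm5, Mcm4 and Mcm6 averaged 13.63 ± 0.07, 13.59 ± 0.06 and 13.26 ± 0.05 (SD, n = 3). Rpa1, the large subunit of the single-strand binding protein, read 13.55, 13.76 and 13.55. Uhrf1, which recruits the maintenance methyltransferase to new DNA, averaged 13.54 ± 0.02 (SD, n = 3), and Dnmt1, that enzyme, ranked at 91.9. Fen1, the flap nuclease, read 12.74, 12.65 and 12.91, Rfc2, a clamp loader subunit, read 12.73, 12.93 and 12.75, and Cdt1, a licensing factor, read 12.61, 12.85 and 12.54. The median range of the list was 0.13. One member, Mcm3, had a range of at least 1 and ranked at 47.5, and is named here because of that range. Pcna, the sliding clamp, ranked at 64.7. Gmnn, the inhibitor of CDT1, read 7.32, 7.18 and 7.49, and Prim1, the primase subunit, read 7.46, 6.98 and 6.85. Orc1 and Pola1 were undetected, as was Mcm7.

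Mitosis genes were detected for 23 of 28 analysed, beside 44.1% of all genes, at a median rank of 69.9, or 56.9 with undetected members at 0. Cenpa, the centromeric histone, averaged 13.47 ± 0.05 (SD, n = 3), Prc1, a spindle midzone protein, 12.54 ± 0.09, and Cdc20, the activator of the anaphase promoting complex, 12.18 ± 0.07. Top2a, topoisomerase II alpha of dividing cells, read 11.79, 11.50 and 11.30, and Birc5, survivin, read 11.77, 11.67 and 11.57. Both were highest in culture 1 and lowest in culture 3. Of the 23 detected members, 9 were highest in culture 1, beside 28.1% of all detected genes, and 11 in culture 3, beside 37.2%. Culture 3 was the lowest for 7 of them, beside 31.2%. Plk1 ranked at 75.7, Cdk1 at 73.4 and Aurka at 69.9, all kinases of mitotic entry and spindle assembly. Ccna2, cyclin A, ranked at 25.8, and Cdc25b, a phosphatase that activates CDK1, averaged 7.08 ± 0.15 (SD, n = 3). Ccnb2, Bub1, Kif20a, Cenpe and Nuf2 were detected on no array.

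All 3 D cyclins, which carry mitogen signals to the cell cycle, were detected, at ranks of 81.5 to 95.2. Ccnd3 averaged 12.89 ± 0.07 and Ccnd1 12.38 ± 0.12 (SD, n = 3), and Ccnd2 read 11.32, 11.01 and 11.74, the widest spread of the 3. Cdk2 averaged 12.38 ± 0.09 and E2f1 11.03 ± 0.10 (SD, n = 3), whereas Cdk6 was detected on no array. Of the G1 list 12 of 16 were detected, beside 44.1% of all genes, at a median rank of 71.3, or 49.8 with undetected members at 0. Myc, the growth regulator, read 8.66, 7.71 and 7.20, with culture 1 high and a range of 1.46, which became 0.52 without that culture. Ccne1, cyclin E, read 7.76, 7.74 and 8.07.

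Inhibitors and genes tied to quiescence were detected for 14 of 19 analysed, beside 44.1% of all genes. Their median rank was 44.0, or 24.8 with undetected members at 0. Mdm2 averaged 11.02 ± 0.04 and Ccng1 11.01 ± 0.14 (SD, n = 3), both targets of p53. Cdkn1a, the p21 inhibitor and a further p53 target, read 10.08, 9.87 and 9.99. Txnip, a thioredoxin inhibitor of quiescent stem cells, read 11.03, 10.81 and 10.48. Cdkn2c and Cdkn2d, the INK4 inhibitors p18 and p19, averaged 9.01 ± 0.03 and 9.04 ± 0.09 (SD, n = 3). Cdkn1c, the p57 inhibitor of dormant stem cells, ranked at 22.5, and Foxo1 averaged 6.28 ± 0.07 (SD, n = 3). Cdkn1b, Cdkn2b, Btg2 and Foxo3 were detected on no array.

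**Figure D4:**
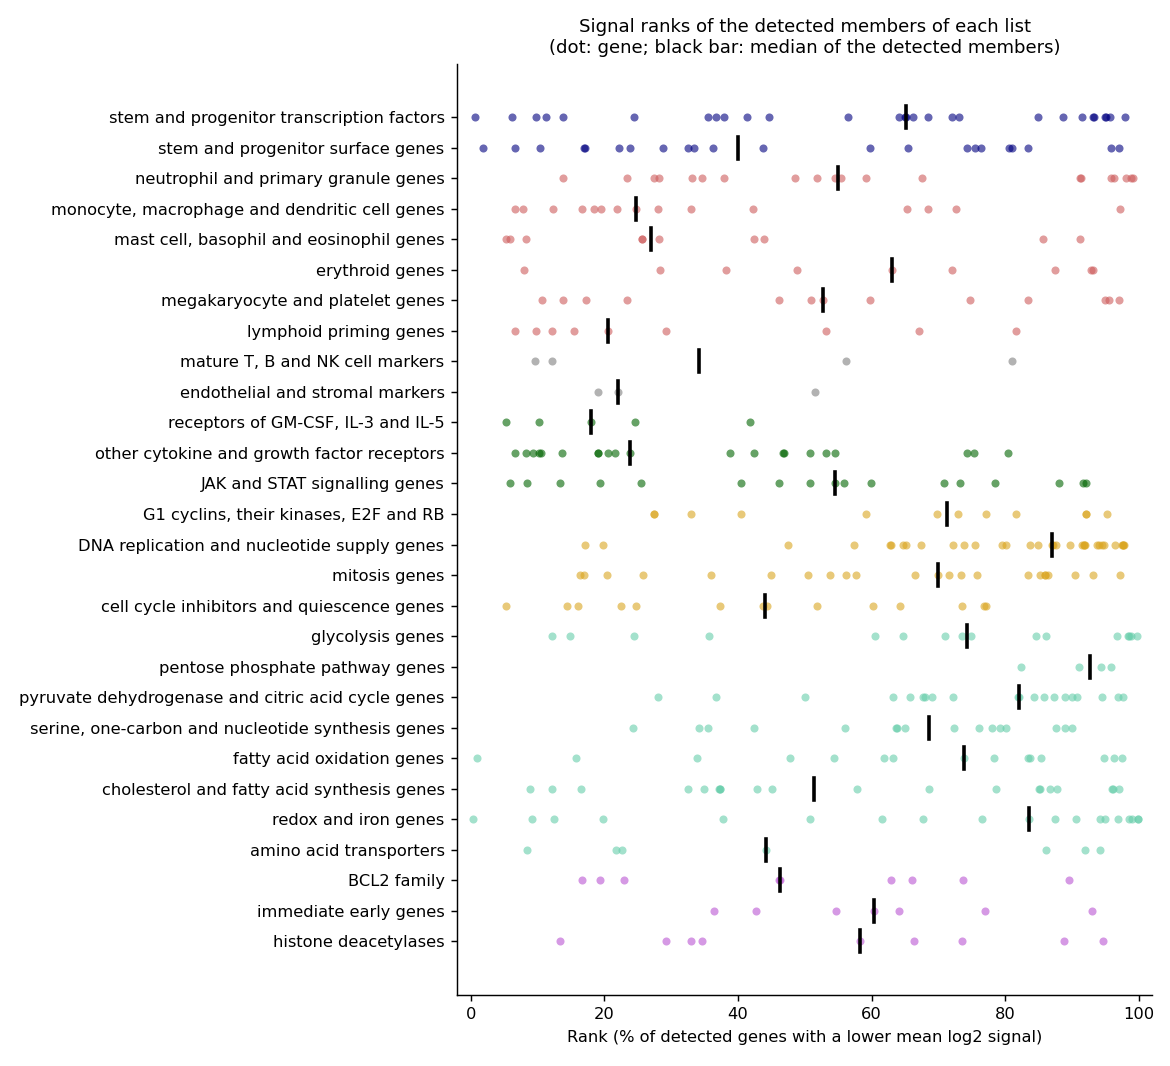
Rank of every detected list member among the 7319 detected genes (points, percent of detected genes with a lower mean signal), with the median of each list as a bar. The medians run from 18.0 for the GM-CSF, IL-3 and IL-5 receptor chains to 92.7 for the pentose phosphate pathway.

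Apart from ribosomal protein genes, which held 27 of the 50 brightest places, the 10 brightest genes were Ubb-ps, Mif, H2ac20, Fth1, Gpx1, Actb, Atp5b, Tuba1b, Npm1 and Gapdh. Their means lay between 14.82 and 14.94. Ubb-ps is annotated as a pseudogene of the ubiquitin gene Ubb and read 14.99, 14.92 and 14.92. Mif, a cytokine made by many cells, read 14.95, 14.92 and 14.87. Actb, Tuba1b and the histone gene H2ac20 belong to families of close copies, so their probes may share signal. Atp5b, the catalytic subunit of the mitochondrial ATP synthase, read 14.72, 14.84 and 14.95, and Npm1, the nucleolar chaperone of ribosome assembly, read 14.98, 14.85 and 14.67. These 2 genes had opposite orders of the cultures, over ranges of 0.23 and 0.31.

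Glycolysis genes were detected for 16 of 22 analysed, beside 44.1% of all genes, at a median rank of 74.2, or 62.6 with undetected members at 0. Gapdh read 14.79, 14.80 and 14.88. Ldha, which makes lactate, averaged 14.19 ± 0.01, Pkm, pyruvate kinase, 14.06 ± 0.09, Tpi1 13.97 ± 0.05 and Aldoa 13.33 ± 0.08 (SD, n = 3). These 5 genes had ranks of 96.7 to 99.8 and SDs no higher than 0.09. Among hexokinases, which trap glucose in the cell, Hk2 averaged 11.62 ± 0.05 and Hk3 read 10.78, 10.74 and 11.13, while Hk1 ranked at 35.7. The glucose carriers Slc2a1 and Slc2a3 ranked at 70.9 and 64.7. Pfkl, the liver-type phosphofructokinase, averaged 11.76 ± 0.05 (SD, n = 3), and Pfkp, the platelet type, read 7.55, 6.41 and 6.20, with culture 1 apart. Aldoc, the brain-type aldolase, averaged 6.93 ± 0.26 (SD, n = 3).

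All 4 analysed pentose phosphate genes, which supply NADPH and ribose, were detected at a median rank of 92.7, beside 44.1% of all genes detected. Tkt, transketolase, read 13.01, 13.32 and 12.89, and Taldo1, Pgls and Rpia averaged 12.75 ± 0.06, 12.24 ± 0.12 and 11.44 ± 0.07 (SD, n = 3). Redox and iron genes were detected for 19 of 20, at a median rank of 83.5, or 80.0 with undetected members at 0. Fth1, the ferritin heavy chain, read 14.92, 14.88 and 14.80, and Gpx1, the peroxidase, read 14.84, 14.91 and 14.83. Prdx1 averaged 14.31 ± 0.05, Sod1 14.06 ± 0.14 and Sod2 12.71 ± 0.12 (SD, n = 3), all of which clear peroxide or superoxide. The NRF2 targets Hmox1 and Nqo1 were dim, Hmox1 at a rank of 12.5 and Nqo1 at 6.10, 5.90 and 5.80. Gclm, a subunit of the glutathione synthesis enzyme, averaged 12.84 ± 0.05, and Gclc, its catalytic partner, 6.51 ± 0.09 (SD, n = 3). These are signals of separate probes, and the proportion of the subunits was not measured.

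Mitochondrial genes were also well represented. Pyruvate dehydrogenase and citric acid cycle genes were detected for 20 of 24 analysed, beside 44.1% of all genes. Their median rank was 82.0, or 70.6 with undetected members at 0. Suclg1, a succinyl-CoA ligase subunit, averaged 13.59 ± 0.04, Idh3g 13.37 ± 0.08 and Idh2 12.78 ± 0.08 (SD, n = 3), both isocitrate dehydrogenase genes. Mdh2 averaged 12.13 ± 0.04 and Cs, citrate synthase, 11.89 ± 0.14 (SD, n = 3). Pdk1 and Pdk3, kinases that shut pyruvate dehydrogenase off, ranked at 72.2 and 67.6, whereas Pdk2 and Pdk4 were detected on no array. Dlat, the E2 subunit of the same complex, averaged 7.91 ± 0.19 (SD, n = 3).

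Fatty acid oxidation genes were detected for 15 of 19, beside 44.1% of all genes. The median rank was 73.9, or 61.8 with undetected members at 0. Etfb and Etfa, which pass electrons from acyl-CoA dehydrogenases to the respiratory chain, averaged 13.53 ± 0.11 and 12.82 ± 0.06 (SD, n = 3). Acadm, the medium-chain dehydrogenase, averaged 11.55 ± 0.08 (SD, n = 3). Hadh, a dehydrogenase of the same cycle, read 6.00, 5.92 and 6.06, among the dimmest detected genes. Cpt1a, the gate for long-chain fatty acids, and the regulators Ppara and Ppard were detected on no array.

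Biosynthesis genes were detected almost throughout the lists. All 20 analysed cholesterol and fatty acid synthesis genes were detected, beside 44.1% of all genes, at a median rank of 51.4. Hmgcs1, of the mevalonate pathway, averaged 13.39 ± 0.02, Fdps, farnesyl diphosphate synthase, 13.18 ± 0.13 and Acly, which supplies cytosolic acetyl-CoA, 13.09 ± 0.08 (SD, n = 3). Fasn, fatty acid synthase, read 6.44, 6.13 and 6.90, near the detection limit. Serine, one-carbon and nucleotide synthesis genes were detected for 16 of 17, at a median rank of 68.6, or 65.0 with undetected members at 0. Psat1, of serine synthesis, read 12.39, 12.10 and 11.91, and Phgdh, the first enzyme of the same route, read 9.56, 8.55 and 7.32. Both were highest in culture 1 and lowest in culture 3, as was Shmt1, a one-carbon enzyme, at 8.14, 7.53 and 7.23. Of the 16 detected members, 7 were highest in culture 1, beside 28.1% of all detected genes, and 7 in culture 3, beside 37.2%. Culture 3 was the lowest for 6 of them, beside 31.2%. The nucleotide synthesis genes Ctps and Gart averaged 12.03 ± 0.06 and 11.92 ± 0.09 (SD, n = 3). Among amino acid transporters 7 of 12 were detected, beside 44.1% of all genes. Slc7a5, the leucine carrier LAT1, led them at 12.83, 12.60 and 12.74. Its heavy chain Slc3a2 averaged 7.52 ± 0.16 (SD, n = 3).

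The BCL2 family, which sets the threshold for apoptosis, had 9 of 13 analysed genes detected, beside 44.1% of all genes. Mcl1, the survival protein that stem cells depend on, averaged 12.09 ± 0.10 and ranked at 89.5. Bcl2, a survival gene too, read 10.54, 10.25 and 10.14. Bcl2l1, which encodes BCL-XL, read 7.78, 7.29 and 6.12, highest in culture 1, and rested on 1 detected probe of 3. Another of its probes, detected on 2 arrays, read 5.75, 5.69 and 6.27, with culture 3 the highest. The death-promoting genes Bid and Bad averaged 10.78 ± 0.13 and 10.14 ± 0.11 (SD, n = 3), while Pmaip1, Bmf, Bik and Hrk were detected on no array.

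The 10 genes with the widest range over the cultures, passing over identifiers such as Gm and RIKEN clones, fell into 2 orders. Hba-a1, Hp and Dmkn, a secreted epidermal protein at 9.76, 8.82 and 10.26, were highest in culture 3 and lowest in culture 2. The other 7 were highest in culture 1 and lowest in culture 3. They were Phgdh, Bcl2l1, Myc, Msn, Wdr4, Eif3c and Gnas. Msn, a linker of membrane and actin, read 7.93, 6.41 and 5.92, Wdr4, a tRNA methylation subunit, read 7.75, 6.89 and 5.87, and Eif3c, a translation initiation subunit, read 9.61, 8.46 and 7.73. Gnas, which encodes the stimulatory G protein alpha chain, read 9.87, 8.80 and 8.01. Bcl2l1 and Hp each rested on 1 detected probe of 3, Gnas on 1 of 4 and Myc on 1 of 2. The widths depended on the processing. Without background correction the range of Msn was 1.05, in place of 2.01, and that of Bcl2l1 0.87, in place of 1.65, and in the deposited log2 values they were 0.82 and 0.68. In those deposited values the range was 1.40 for Phgdh, 1.24 for Eif3c, 0.85 for Hp, 0.77 for Myc and 0.75 for Wdr4. Single cultures also set them. Msn had a range of 0.46, Eif3c of 0.73, Gnas of 0.80 and Wdr4 of 0.84 without culture 1. Dmkn had 0.50 and Hp 0.84 without culture 2, and Bcl2l1 had 0.48 and Phgdh 1.00 without culture 3. Of the 100 genes with the widest range, 0.894 or more, 43 had culture 1 highest and culture 3 lowest, beside 15.1% of all detected genes, and 29 had culture 3 highest and culture 2 lowest, beside 16.9%. Of these 100 genes 22 had other detected probes, 24 in number, of which 19 were highest in the same culture and 16 also lowest in the same one. These orders were counted after the values were seen, and what they reflect was not tested. Over the 10137 detected probes the cultures correlated at r = 0.989 to 0.992, across probes that are not independent replicates.

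**Figure D5:**
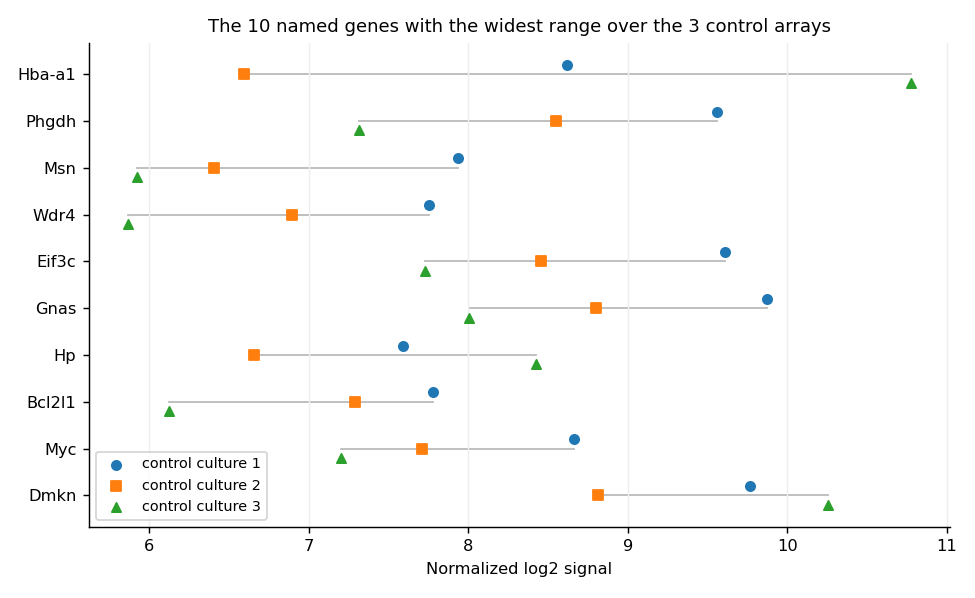
Normalized log2 signal of the 10 named genes with the widest range on the 3 control arrays, 1 symbol per culture. Hba-a1, Hp and Dmkn have culture 3 at the right end, and the other 7 genes have culture 1 there, with ranges of 1.44 to 4.18.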

How the data were processed

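Total RNA of each culture was turned into biotin-labelled cRNA and hybridised to 1 Illumina BeadChip, per the labels' protocols. The deposited table gives, per the file headers, the mean signal intensity of 25697 probes on each array with a detection p-value for each. The submitters' processing notes name GenomeStudio without a version. Deposited log2 values of each array, whose making is not given in the sources used here, served as an alternative only. Groups came from the sample titles.

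The 3 control arrays alone were processed with neqc in limma 3.58.1 under R 4.3.3, with background estimated from detection p-values, an offset of 16, quantile normalization between arrays and a final log2 step. Subtracting background widens log2 differences between dim signals. The procedure was tested on simulated data. The GEO platform annotation, which can be old, gives 1 symbol for 23978 probes and none for 1719. A gene is shown by its brightest probe detected on all 3 arrays at p under 0.05.

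Gene lists (29 lists, 629 genes, of which 557 were analysed) and members were chosen with earlier results of these data known. Values per array or means are given for 5 markers, the 10 brightest genes outside ribosomal proteins, the 10 genes with the widest range and, per list, up to 8 brightest and 2 dimmest detected members. Other members appear with ranks, and clone-type identifiers (Gm, LOC, RIKEN) were passed over. Range is the highest minus the lowest log2 value over the arrays. A summed linear signal is the sum over analysed list members of the normalized signal less the offset. Alternatives changed the background correction, normalization, arrays processed together, source of values, detection rule, choice of probe and arrays left out. Those on other probes, on genes with a level of at least 8 and on undetected members at rank 0 were chosen after seeing the data. No test was run, since 1 group is described. Slide and scan were not analysed here. Promoter sequences came from RefSeq (GRCm38.p6).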

Additional observations from a re-analysis of the deposited data

How the results depend on the processing

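No paired analysis was possible because 1 group is described and nothing is compared between groups. The median level of detected genes, 9.37, was 9.59 without background correction, 9.09 with all 6 arrays processed together and also with the mean of a gene's detected probes, 8.88 in the deposited log2 values, and 9.23 to 9.40 with 1 culture left out. Levels therefore belong to 1 scale, whereas ranks moved little with the scale and more with the choice of probe. Under these normalization alternatives the median shift in rank was at most 0.03 points and 0 genes moved by over 10, against 3.50 points and 622 genes with the mean of the detected probes. The median rank of the stem and progenitor transcription factors, 65.1, was 65.4 to 66.4 with 1 culture left out and 43.0 with undetected members at 0. Other lists moved more. With the mean of the detected probes, histone deacetylases moved most, from 58.2 to 45.8. Redox and iron genes fell from 83.5 to 72.1 and the BCL2 family from 46.3 to 38.1. Some lists rose, such as immediate early genes from 60.3 to 65.4. The T, B and NK cell markers, at 34.2 over 4 detected members, had 9.56 to 17.4 over 5 with 1 culture left out. At a detection p under 0.01, 2 of the listed T, B and NK cell markers and 1 sex-linked gene were detected. At p under 0.05 on at least 2 arrays, 7 such lymphocyte markers were detected. With every probe of a gene required to pass, 13 other cytokine and growth factor receptors, 10 JAK and STAT genes and 4 BCL2 family genes were detected. The causes were not tested. The other counts of list members stayed within 1.5 times. A change of sign was looked for only in the median difference of culture 3 minus culture 2 in neutrophil genes. None was found, and the mean of the detected probes was left out of that check. The difference of culture 3 minus culture 2 in neutrophil genes was 0.66 to 0.92, with 17 of 20 genes highest in culture 3 in every setting but the mean of the detected probes, which gave 15. The ranges of the 10 widest-range genes, 1.44 to 4.18, were 0.87 to 3.17 without background correction, 0.68 to 2.78 in the deposited values and 0.46 to 4.20 with 1 culture left out. Of the 100 widest-range genes with a level of at least 8, 45 were highest in culture 1 and lowest in culture 3.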

Other observations

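Immediate early genes, which growth factors switch on within minutes, were detected for 7 of 16 analysed, close to the 44.1% of all genes. Dusp6, a phosphatase that limits ERK signalling, read 12.61, 12.68 and 12.27 in cultures 1, 2 and 3 and ranked at 93.0. Dusp2, a related phosphatase, averaged 11.01 ± 0.08 and Egr1, a zinc finger factor, 10.20 ± 0.10 (SD, n = 3). Culture 3 was the lowest for these 3 genes. Junb, an AP-1 subunit, averaged 8.94 ± 0.16 and Dusp1, a phosphatase of stress kinases, 8.54 ± 0.19 (SD, n = 3). Fos, Fosb, Fosl1, Egr2, Egr3, Ier2 and Atf3 were detected on no array.

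Histone deacetylase genes, whose class I products are the known targets of valproic acid, were detected for 9 of 11 analysed. The share of all genes detected in these untreated cultures was 44.1%. Hdac2 read 12.90, 12.80 and 12.71 and ranked at 94.7. Hdac3 averaged 12.01 ± 0.06, Hdac1 10.33 ± 0.14 and Hdac8 6.82 ± 0.26 (SD, n = 3). Of the class II genes, Hdac5 averaged 10.78 ± 0.11, Hdac7 read 9.54, 10.07 and 9.96, and Hdac6 averaged 8.01 ± 0.18 (SD, n = 3). Hdac9 was detected on no array.

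Xist, the RNA of the inactive X chromosome, read 11.83, 12.11 and 11.52, and the Y-linked gene Uty read 5.93, 7.04 and 6.84, while Eif2s3y and Kdm5d, Y-linked too, were detected on no array. The sex of the animals is not given in the sources used here. Of 1719 probes without a gene symbol, 580 were detected on all 3 arrays and are not described.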
